A study of Ovis aries with 9 samples.

Results

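The ovaries of Small Tail Han ewes without the FecB allele were compared with the ovaries of Dorset ewes. The comparison used the 6 libraries of these groups, out of 9 in the series, and was chosen by the breed and genotype given for each animal. The Han ++ group held 3 Small Tail Han ewes of genotype FecB+ FecB+ (W6, W7 and W8), and the Dorset group held 3 Dorset ewes described as wild type (D4, D5 and D6). The methods report a FecB test on the blood of the Han ewes and mention none for the Dorset ewes. All of these adult ewes had worn a fluorogesterone acetate sponge and had received pregnant mare serum gonadotropin. They were killed shortly after the spontaneous estrus that followed the synchronized cycle. Whole ovaries bearing ovulation points were taken, so each library mixes oocytes, follicle cells, luteal tissue, stroma, vessels, the surface epithelium and any adhering tissue. In such samples, fewer cells of a type and less RNA per cell cannot be told apart.

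Small Tail Han is a prolific breed, and Dorset is a breed of lower fecundity. FecB is a point mutation in the BMP receptor gene BMPR1B that raises the ovulation rate, so a comparison of Han ++ with Dorset concerns the breeds apart from that mutation. After ovulation the wall of the ruptured follicle becomes a corpus luteum, which makes progesterone, while the ovarian surface epithelium closes the site of rupture. The oviduct lies against the ovary, and its lining holds multiciliated cells, whose beating cilia move the egg, and secretory cells, which make glycoproteins such as OVGP1.

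The reads counted on genes numbered between 10803913 (W8) and 20992535 (W7). The highest rank correlation of log2 CPM (reads scaled to the library's total with TMM factors) was 0.980, between W6 and W7. The Han ++ libraries resembled each other (lowest rank correlation 0.967) more than the Dorset libraries did (0.897 to 0.946). The first principal component held 46.4% of the variance and did not follow breed, since it ran from D4 at -88.3 and W8 at -50.6 to D6 at 94.6. The second held 19.9% of the variance, and all Han ++ libraries lay above all Dorset libraries on it. A single row, LOC101101865, took 14.9% of the reads of D4 and 7.69% of W8, but 0.0107% of D6. W8 and D4 were also the shallowest libraries. The counts cannot check the genotype, which is a base change in a gene with few reads. Nor did any gene serve as a check of breed, so the direction of every difference rests on the animal names of the count columns, which match the labels.

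**Figure D1:**
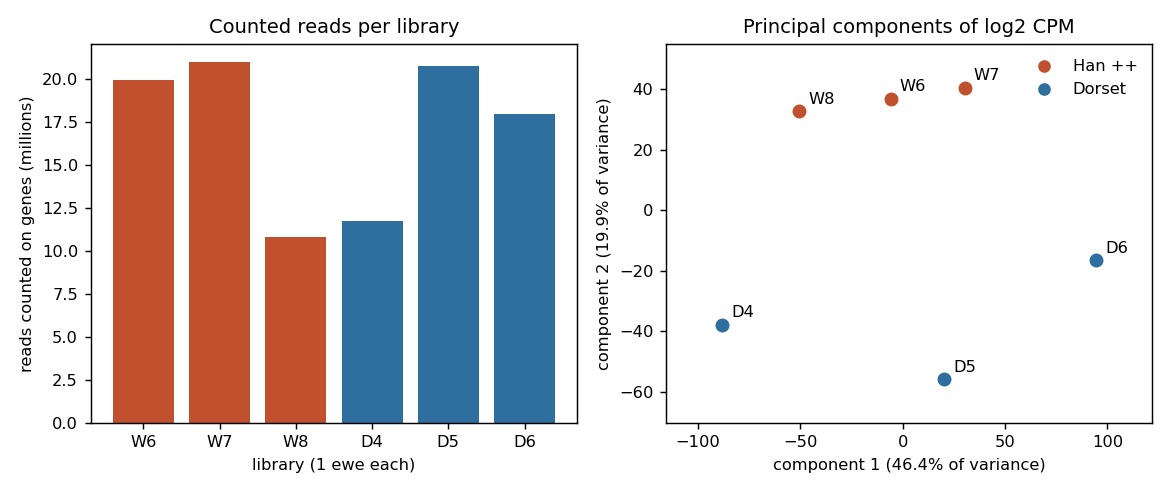
Left, reads counted on genes in each library, from 10803913 in W8 to 20992535 in W7. Right, the libraries on the first principal components of log2 CPM, each point an ewe, with breed separated on the vertical axis (19.9% of the variance) and D4 and D6 at opposite ends of the horizontal axis (46.4%).

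A gene was called where edgeR's quasi-likelihood test gave an adjusted p below 0.05 and the groups differed by more than 1.5-fold, and 0 of 16426 tested rows (0%) were called. At an unadjusted p under 0.05 there were 892 rows, 458 with higher values in Han ++ (2.79% of those tested) and 434 with lower values (2.64%). DESeq2 called 63 genes on the same libraries, 45 higher and 18 lower in Han ++, while 5 were called by limma voom with weights for library quality. In 952 rows all Han ++ values lay above all Dorset values (5.80%), and in 869 rows all lay below (5.29%). The median log2 fold change over all tested rows was -0.05. The groups of genes below are described against these shares, and no gene in them passed the adjusted threshold of the edgeR test. Their lists were written with earlier results of these data known, so counts above these shares are not independent support. Some members, such as ROPN1L, LRRC23, TFF3 and WFDC2, are also among the genes of smallest p named first.

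TFF3, a trefoil peptide secreted by mucous epithelia, had the smallest p. It measured 10.7, 11.1 and 9.62 CPM in the Han ++ libraries W6, W7 and W8, and 0.571, 0.597 and 0.961 CPM in the Dorset libraries D4, D5 and D6. The groups lay far apart in these counts, with little spread among the Han ++ ewes. The direction for TFF3, and for the ciliary genes below, rests on the deposited counts alone. The study's own processed values list TFF3, ROPN1L, LRRC23 and TTC21A as lower in Han ++, the reverse of these counts. They give LECT1 and IFI6 the same direction as here, and were not analysed further. By quantitative PCR the study reports LOC101116109, among other genes, as lower in Han sheep than in Dorset. In these counts that row, named ROPN1 in the assembly used for names, was higher in Han ++ (log2 fold change 2.22). The study's discussion also states that TTC26, which it treats as a long non-coding RNA, was down-regulated by quantitative PCR. TTC26, listed here with intraflagellar transport, was likewise higher in Han ++ (log2 fold change 0.997). The other genes of that PCR were not compared here. The cause of the conflict was not tested. The log2 fold change of TFF3 was 3.86 (standard error 0.43, adjusted p = 0.0605 in edgeR), and the gene passed the threshold with DESeq2, with no filter on low counts and without D6, in 3 of 13 alternatives. Its adjusted p ranged from 7.15e-09 to 0.688 over them.

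ROPN1L, a protein of the radial spokes of cilia and sperm tails, stood at 26.1, 19.9 and 20.8 CPM in Han ++ and at 3.23, 2.71 and 4.13 CPM in Dorset. All Han ++ values exceeded all Dorset values, with a log2 fold change of 2.73 (standard error 0.33, adjusted p = 0.0713 in edgeR). It passed the threshold in 5 of the 13 alternatives, the highest count among the named genes. LRRC23, another radial spoke protein, read 47.0, 33.1 and 25.1 CPM against 5.90, 6.53 and 6.50 CPM (log2 fold change 2.47, standard error 0.33, adjusted p = 0.101 in edgeR).

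MUSK encodes a receptor tyrosine kinase known from the junction of nerve and muscle. Its values were 56.1, 66.3 and 74.1 CPM in Han ++ and 17.8, 8.78 and 9.55 CPM in Dorset. The highest Dorset ewe, D4, remained below every Han ++ ewe. The log2 fold change was 2.45 (standard error 0.35, adjusted p = 0.104 in edgeR), and without D4 it was 2.85 with an adjusted p of 0.0460, which passes the threshold.

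The other genes with symbols that led the higher side by p were WDR38, UBXN10, WFDC2, PLEKHB1, S100A1, CPT1B, CAPS and GPX2, with log2 fold changes from 1.63 (CPT1B) to 3.23 (WFDC2). UBXN10 is a cofactor in cilium formation and WFDC2 is a secreted protease inhibitor of the reproductive tract epithelium. CPT1B carries long-chain fatty acids into mitochondria, GPX2 is an epithelial glutathione peroxidase, and S100A1 and CAPS bind calcium. WFDC2 varied most among the Han ++ ewes, at 31.7, 11.7 and 9.25 CPM against 2.38, 2.16 and 1.13 CPM in Dorset. CPT1B varied least, at 18.5, 17.1 and 20.3 CPM against 7.04, 5.33 and 5.65 CPM. By the rule that chose them, the values of these genes do not overlap between the breeds.

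On the lower side, AKR1E2, an aldo-keto reductase, had the smallest p. It measured 5.17, 4.25 and 5.37 CPM in Han ++ and 18.9, 16.7 and 13.2 CPM in Dorset, a log2 fold change of -1.72 (standard error 0.32, adjusted p = 0.284 in edgeR). BAI3, an adhesion receptor of the nervous system, read 6.67, 7.85 and 3.42 CPM against 18.9, 28.0 and 24.0 CPM (log2 fold change -1.97). LECT1 (chondromodulin), an inhibitor of vessel growth known from cartilage, read 2.37, 4.43 and 1.02 CPM against 28.6, 11.6 and 11.3 CPM (log2 fold change -2.69). D4 was the highest ewe for LECT1, and D5 for BAI3.

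NR4A1, described with the immediate early genes below, also belonged to the 12 lower genes of smallest p. MTSS1L, WHSC2, WDR46, DPP10, BAMBI.1, TMEM154, FBXL19 and CNTN4 completed them, with log2 fold changes from -2.01 (TMEM154) to -1.18 (WDR46). WHSC2 is a subunit of the complex that pauses RNA polymerase, DPP10 is a partner of potassium channels, and CNTN4 is a neuronal adhesion protein. BAMBI.1 is one of the rows that carry the symbol of BAMBI, a decoy receptor of the BMP pathway, with a numeric suffix. It averaged 12.4 ± 0.489 CPM in Han ++ and 28.4 ± 5.40 CPM in Dorset (SD over the 3 ewes of each breed, log2 fold change -1.19, standard error 0.29, adjusted p = 0.513 in edgeR). Reads shared with near-identical copies make suffix rows uncertain.

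**Figure D2:**
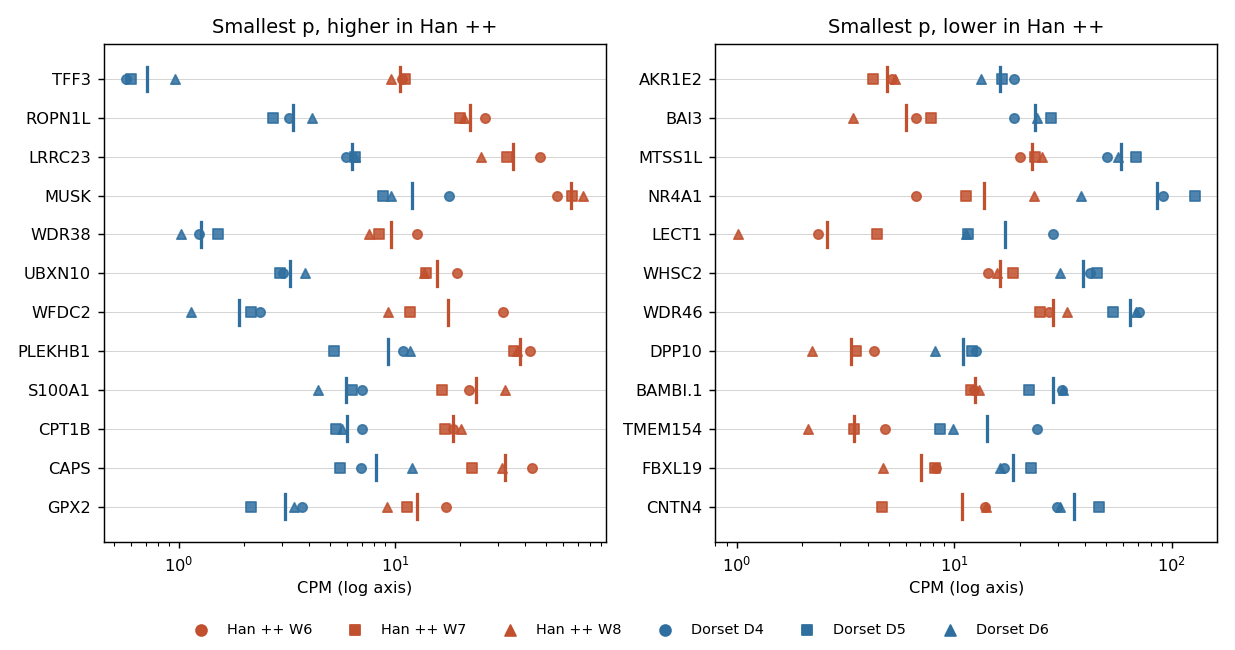
CPM on a log axis for the 12 genes with symbols of smallest p on each side, each marker an ewe and each vertical bar a group mean (Han ++ orange, Dorset blue). The 3 Han ++ markers lie to the right of the 3 Dorset markers at left and to the left of them at right, which the choice of genes required, and TFF3 has the widest gap.

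Han BB ewes carry 2 copies of the FecB allele and were compared with the same Dorset libraries, so their values are not independent of those above. In 1 fit of all 9 libraries, TFF3 had a log2 fold change over Dorset of 3.85 in Han ++ and 2.66 in Han BB. The values for ROPN1L were 2.71 and 1.54, for MUSK 2.43 and 0.86, for AKR1E2 -1.74 and -0.63, and for NR4A1 -2.65 and -2.72. The difference between the Han groups was not tested here.

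Several groups of ciliary genes had higher values in Han ++. Radial spokes, which tie the outer microtubules of a beating cilium to its central pair, had 14 tested members, and 13 had a positive fold change (median log2 fold change 1.35). In this list 7 of 14 were higher at an unadjusted p under 0.05 and none was lower, beside 2.79% and 2.64% of all tested rows. DNAJB13 read 13.7, 9.18 and 7.22 CPM in Han ++ against 2.66, 0.735 and 3.62 CPM in Dorset. RSPH1 did not separate, with 39.9, 33.6 and 6.57 CPM against 5.61, 9.19 and 33.9 CPM. For RSPH1, W8 was as low as the low Dorset ewes and D6 as high as the high Han ++ ewes.

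The central apparatus and ruler list, with the parts that set the spacing of the axoneme, showed 17 of 18 members with positive fold changes (median 0.79) and 6 at an unadjusted p under 0.05, none of them lower. TEKT1, a tektin filament of the cilium that the table lists under a gene number, stood at 96.1, 60.8 and 38.8 CPM in Han ++ and at 10.9, 9.83 and 29.0 CPM in Dorset. For TEKT1 the groups did not overlap, and D6 was the highest Dorset ewe and W8 the lowest Han ++ ewe. HYDIN, a large protein of the central pair, overlapped, at 38.4, 43.7 and 42.7 CPM against 22.8, 19.2 and 46.1 CPM.

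The axonemal dyneins, the motors of the ciliary beat, and their assembly factors had 25 of 31 members with positive fold changes (median 0.56) and 4 at an unadjusted p under 0.05, all higher. ZMYND10, a dynein assembly factor, stood at 22.7, 24.8 and 16.3 CPM against 6.37, 4.92 and 10.1 CPM. The heavy chain DNAH5 read 148, 163 and 81.9 CPM against 28.9, 35.7 and 104 CPM, with D6 above W8. Intraflagellar transport and BBSome genes, which most cells with a primary cilium also use, had a median of 0.06, with 2 of 34 members (TTC8 and TTC26) higher at an unadjusted p under 0.05.

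Regulators of the multiciliated state had 9 of 11 members with positive fold changes (median 0.78), with 4 higher at an unadjusted p under 0.05. FOXJ1, the transcription factor that drives motile cilia, measured 11.4, 8.49 and 8.60 CPM in Han ++ and 2.85, 2.67 and 3.16 CPM in Dorset (log2 fold change 1.71, standard error 0.36, adjusted p = 0.415 in edgeR). These groups did not overlap, and D6 was close to D4 and D5 for FOXJ1. The Dorset library D6 weighed on the ciliary counts. Without it, 10 of 15 radial spoke, 14 of 18 central apparatus and 16 of 31 dynein members were higher at an unadjusted p under 0.05. Without D5, the counts were 5 of 14, 3 of 18 and 1 of 31. The central apparatus count was also 3 without W6 and without D4, the dynein count 1 without W6 and 2 without W7, and the multiciliated count 2 of 11 without W6. Over all tested rows the number higher at that p was 764 without D6 and 384 without D5.

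The oviduct secretory list had 11 of 13 members with positive fold changes (median 1.22), with 6 higher and none lower at an unadjusted p under 0.05. Besides TFF3 and WFDC2, OVGP1, the oviduct-specific glycoprotein, measured 1849, 777 and 1623 CPM in Han ++ and 468, 378 and 726 CPM in Dorset. The lowest Han ++ ewe, W7, was just above the highest Dorset ewe, D6. The log2 fold change of OVGP1 was 1.43 (standard error 0.43, adjusted p = 0.656 in edgeR). PAX8, a transcription factor of the oviduct secretory cell, overlapped, at 14.2, 9.65 and 10.3 CPM against 17.6, 6.02 and 2.60 CPM. The list summed to between 846 and 1957 CPM in Han ++ and between 402 and 752 CPM in Dorset, most of it OVGP1.

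Of the surface and epithelial markers, 15 of 19 had positive fold changes (median 0.59), and 4 were higher at an unadjusted p under 0.05. That count was 8 without D6, 1 without W8, 2 without W6, W7 or D5, and 0 of 19 without W8 and D4. CDH1, which encodes E-cadherin, stood at 42.8, 48.2 and 47.0 CPM in Han ++ and at 16.0, 16.5 and 37.4 CPM in Dorset. The keratin gene KRT7 stood at 36.0, 35.9 and 34.1 CPM and at 5.61, 10.1 and 34.1 CPM. D6 was again the Dorset ewe nearest to Han ++ in both. CDH1 and KRT7 do not stand for every member of the list. BNC1 was lower in every Han ++ ewe than in every Dorset ewe (log2 fold change -0.56). CALB2 (-0.60), LRRN4 (-0.04) and MSLN (0.21) overlapped between the breeds. UPK3B also overlapped and had few reads, 11, 13 and 25 in Han ++ against 2, 16 and 4 in Dorset. A difference in the ovarian surface epithelium itself was not tested. The summed level of the list was 720 to 754 CPM in Han ++ and 397 to 634 CPM in Dorset. The oviduct, epithelial and ciliary lists did not move alike in every ewe. In D6 the mean deviation from the 6 libraries, on the scale of log2(CPM + 0.5), was -0.72 for the oviduct list, but 0.13 for the epithelial, 0.27 for the central apparatus and 0.21 for the dynein list. The central apparatus and dynein values of D6 were above those of W8 (0.11 and 0.16), and D6 had the highest value of the intraflagellar transport list (0.41). The part of epithelial or adhering oviduct tissue in these values was not tested.

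**Figure D3:**
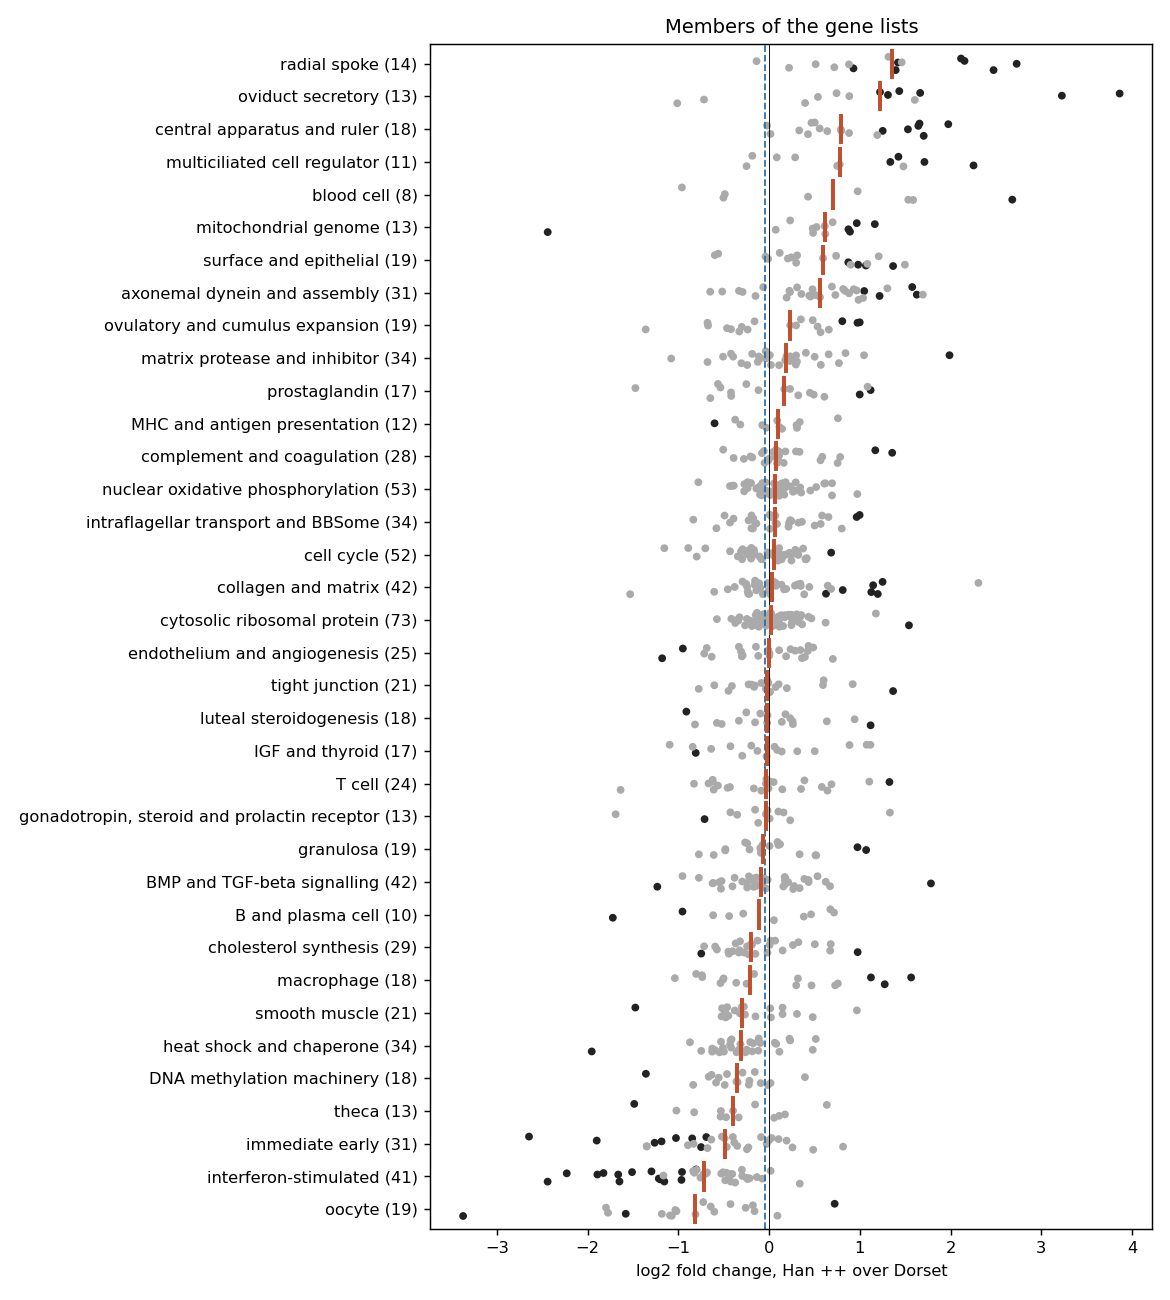
Each point is the log2 fold change (Han ++ over Dorset) of a tested member of a gene list, black where the unadjusted p was under 0.05, with the number of tested members in brackets. The orange bar is the list median and the dashed line the median of all tested rows (-0.05), and the lists run from radial spoke (1.35) at the top to oocyte (-0.81) at the bottom.

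Interferon-stimulated genes had lower values in Han ++ as a group. Of 41 tested members, 39 had negative fold changes (median -0.72), and 14 were lower and none higher at an unadjusted p under 0.05. IFI6, an interferon-induced mitochondrial protein, measured 189, 215 and 168 CPM in Han ++ and 1120, 1333 and 231 CPM in Dorset (log2 fold change -2.23, standard error 0.56, adjusted p = 0.550 in edgeR). D4 and D5 were high for IFI6, while D6 was near Han ++. MX1, an antiviral GTPase, read 70.1, 53.4 and 35.3 CPM against 64.9, 328 and 106 CPM, with only D5 far above the rest.

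TRIM21, a cytosolic antibody receptor, separated the breeds more evenly, at 24.8, 20.9 and 18.8 CPM against 37.2, 42.3 and 46.4 CPM. The list summed to 1313 to 1495 CPM in Han ++ and to 1879 to 4190 CPM in Dorset, with D5 the highest. In D4, IFI6 alone held 1120 CPM of this sum, beside 168 to 215 CPM in the Han ++ ewes. The mean deviation of the list in D4 (-0.12) was next to that in W6 (-0.14), so the sum of D4 does not stand for the list. Without D5 the number lower at an unadjusted p under 0.05 was 4 of 41 and the median was -0.30, and without D4 it was 25 of 42 and -0.93. Leaving out W8 or W7 gave 6 or 7 of 41. IFI6 passed the adjusted threshold with DESeq2 and without D6.

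Immediate early genes, whose transcription responds rapidly to gonadotropins and other signals, were lower in Han ++ at an unadjusted p under 0.05 for 8 of 31 members and higher for none (median -0.49). NR4A1, an orphan nuclear receptor of this group, measured 6.67, 11.4 and 23.2 CPM in Han ++ and 90.8, 128 and 38.4 CPM in Dorset. The groups did not overlap, and the log2 fold change was -2.65 (standard error 0.54, adjusted p = 0.391 in edgeR). FOS stood at 30.7, 58.3 and 34.9 CPM and at 129, 281 and 52.6 CPM, where D6 lay within the Han ++ values. IER3 did separate, at 20.1, 17.6 and 27.4 CPM against 58.1, 33.9 and 40.5 CPM. Without D6 the number lower at that p was 15 of 32, and without another library it ran from 4 (W6) to 6 (D5).

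Oocyte genes had few reads. Of 19 tested members, 17 had negative fold changes (median -0.81), 2 were lower and 1 was higher at an unadjusted p under 0.05. KHDC3L, 1 of the 2 lower, had 1, 0 and 4 reads in Han ++ and 15, 37 and 13 in Dorset. It could pass the expression filter only through Dorset, so the filter set its direction. KPNA7 (17, 14 and 0 reads against 22, 43 and 23) and MOS (20, 8 and 0 against 16, 31 and 33) also relied on Dorset. The counts and median of this list are therefore not independent of the filter. DDX4, a germ cell RNA helicase, measured 1.55, 1.15 and 1.39 CPM in Han ++ and 2.38, 2.11 and 4.24 CPM in Dorset. ZP3, a protein of the egg coat, overlapped, at 5.80, 1.52 and 1.30 CPM against 3.995, 7.21 and 7.06 CPM. The exception was KIT, the receptor of KIT ligand, which other ovarian and blood cells also express. It stood at 74.8, 75.7 and 64.8 CPM in Han ++ and at 39.0, 40.1 and 51.4 CPM in Dorset. GDF9, an oocyte growth factor and a fecundity gene of sheep, had a log2 fold change of -0.43 (standard error 0.63, adjusted p = 1.00 in edgeR). The fecundity genes BMPR1B (0.138 to 0.761 CPM) and BMP15 (0.278 to 0.761 CPM) had too few reads to be tested.

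Steroid-making and follicular cell genes gave few differences at an unadjusted p under 0.05, with 2 of 19 granulosa, 1 of 13 theca and 2 of 18 luteal genes in either direction. The granulosa list had a median log2 fold change of -0.07, the luteal list -0.02 and the theca list -0.40. FSHR, the receptor that marks granulosa cells, overlapped, at 14.6, 6.69 and 13.2 CPM in Han ++ and 13.3, 11.1 and 7.74 CPM in Dorset. CYP17A1, the enzyme that makes androgens in the theca, stood at 6.63, 70.7 and 63.0 CPM and at 117, 29.0 and 39.2 CPM. The spread within each breed was wider than the gap between them. OXT, the oxytocin gene of the corpus luteum, ran from 271 to 719 CPM in Han ++ but from 1.93 CPM in D5 to 764 CPM in D4. FSHR, CYP17A1 and OXT had reads in all 6 libraries.

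PTGFR, the receptor through which prostaglandin F2alpha ends the life of the corpus luteum, read 165, 494 and 171 CPM in Han ++ and 160, 74.1 and 148 CPM in Dorset, with D4 just under W6. PTGER4, a receptor of prostaglandin E2, separated the breeds at 15.8, 16.9 and 13.9 CPM against 8.18, 5.79 and 9.38 CPM. The prostaglandin list as a whole had 2 of 17 members higher at an unadjusted p under 0.05 and a median of 0.17. Among ovulatory and cumulus genes 3 of 19 were higher, with EGFR, the receptor of the EGF-like ovulatory factors, at 51.6, 96.3 and 139 CPM against 37.0, 61.7 and 44.9 CPM.

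In BMP and TGF-beta signalling, the pathway of FecB, 1 of 42 tested members was higher and 1 was lower at an unadjusted p under 0.05, and the median was -0.09. TGFB1, a ligand, stood at 18.96, 20.7 and 55.5 CPM in Han ++ and at 14.8, 8.32 and 4.58 CPM in Dorset. ID4, a target of BMP signalling, stood at 47.7, 48.1 and 41.2 CPM and at 58.8, 77.6 and 185 CPM. Neither gene overlapped between the breeds, and W8 and D6 were the extreme ewes. Among gonadotropin, steroid and prolactin receptors 1 of 13, NR3C2 (the mineralocorticoid receptor), was lower at that p.

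Matrix genes had a median of 0.03, but 6 of 42 were higher at an unadjusted p under 0.05 and none was lower. Without W7 or without W8 there were 3. The 6 were COL4A1, COL4A2 and NID2 of the basement membrane, FN1, COL8A1 and COL11A1. Other basement membrane genes of the list ran from LAMA2 (log2 fold change -0.26) to COL18A1 (0.44), with LAMB1 at -0.23 and NID1 at -0.10. COL4A1, a chain of type IV collagen, measured 911, 760 and 1290 CPM in Han ++ and 531, 433 and 281 CPM in Dorset. FN1, which encodes fibronectin, measured 3477, 4196 and 4608 CPM and 2676, 1277 and 1403 CPM. Both were higher in every Han ++ ewe than in every Dorset ewe. The fibrillar collagen gene COL1A1 overlapped, at 3726, 5168 and 5406 CPM against 2841, 5181 and 1117 CPM.

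Among immune lists, 3 of 18 macrophage genes were higher at an unadjusted p under 0.05, although the median was -0.21. ITGAM, an integrin of myeloid cells, stood at 67.8, 39.7 and 56.9 CPM in Han ++ and at 32.2, 8.18 and 15.4 CPM in Dorset. Leaving out D5 left 1 of 19 higher and 1 lower. Leaving out D4 turned the median to 0.59 with 8 of 18 higher. T cell genes had 1 of 24 higher and B and plasma cell genes 2 of 10 lower at that p. F5, coagulation factor V, led the complement and coagulation list, at 41.0, 24.2 and 40.4 CPM against 14.6, 12.2 and 14.4 CPM.

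Of the 13 protein genes of the mitochondrial genome, 12 had positive fold changes (median 0.61), with 4 higher and 1 (ND6) lower at an unadjusted p under 0.05. CYTB, a subunit of complex III, stood at 1712, 2301 and 1854 CPM in Han ++ and at 1473, 603 and 1088 CPM in Dorset. D5 was the lowest ewe for most of them, and without D5 none was higher at that p and the median was 0.30. None was higher without W6 or without W8 either, 1 was without D6, 2 were without W7 and 8 were without D4. ND6 was the exception, at 65.8, 109 and 58.6 CPM against 104, 111 and 1053 CPM, where D6 stood far above the other 5 libraries. The nuclear genes of oxidative phosphorylation had a median of 0.07, with 0 of 53 at an unadjusted p under 0.05 in edgeR.

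Cytosolic ribosomal protein genes had a median of 0.03, and 1 of 73 was higher at an unadjusted p under 0.05. That gene, RPS3A, measured 3633, 3790 and 4066 CPM in Han ++ and 1965, 1029 and 955 CPM in Dorset. Ribosomal protein genes have many processed copies, so the split of reads among rows is uncertain. Without D4, 21 of 73 were higher and the median was 0.47. Cell cycle genes had 1 of 52 higher at that p (CDC25B, a phosphatase that starts mitosis), and smooth muscle genes 1 of 21 lower (LMOD1, an actin-binding protein of smooth muscle).

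The heat shock and DNA methylation lists each had 1 member lower at an unadjusted p under 0.05, beside 2.64% of all tested rows, of which 8944 of 16426 had negative fold changes. Without D4 the numbers were 11 of 34 and 4 of 18, and without D6 they were 0 of 34 and 2 of 19. Of 34 heat shock genes 27 had negative fold changes (median -0.31), and 1, HSPA1A, was lower at an unadjusted p under 0.05. HSPA1A read 7.88, 59.5 and 16.3 CPM against 29.1, 49.4 and 247 CPM, so W7 lay within the Dorset values. Of 18 DNA methylation genes 16 had negative fold changes (median -0.35), and ZBTB4, a reader of methylated DNA, was lower at that p, at 9.48, 14.1 and 12.9 CPM against 14.8, 39.3 and 39.0 CPM. The Dorset ewe D4 had a lower mean deviation than every Han ++ ewe in both lists (-0.19 for heat shock and -0.29 for DNA methylation), while D6 was highest in both (0.43 and 0.38), with D5 at 0.11 and 0.38.

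In the remaining lists few members stood out at an unadjusted p under 0.05. The cholesterol list had 1 of 29 higher (ABCG1, a cholesterol exporter) and 1 lower (IDI1, an enzyme of isoprenoid synthesis), with a median of -0.20. Endothelium and angiogenesis had 2 of 25 lower (EGFL7 and LYVE1) and a median of 0.00, and IGF and thyroid genes had 1 of 17 lower (IGFBP6, which binds insulin-like growth factors). Tight junction genes had 1 of 21 higher (CLDN7, a claudin), blood cell genes 1 of 8 (S100A12, a neutrophil protein), matrix proteases and inhibitors 1 of 34 (ADAMTS14) and complement and coagulation genes 2 of 28. Antigen presentation had 1 of 12 lower (TAP2, a peptide transporter). S100A12 rested on W8, at 25.3 CPM against 7.06 and 3.46 CPM in W6 and W7 and 4.09, 0.873 and 0.791 CPM in Dorset.

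**Figure D4:**
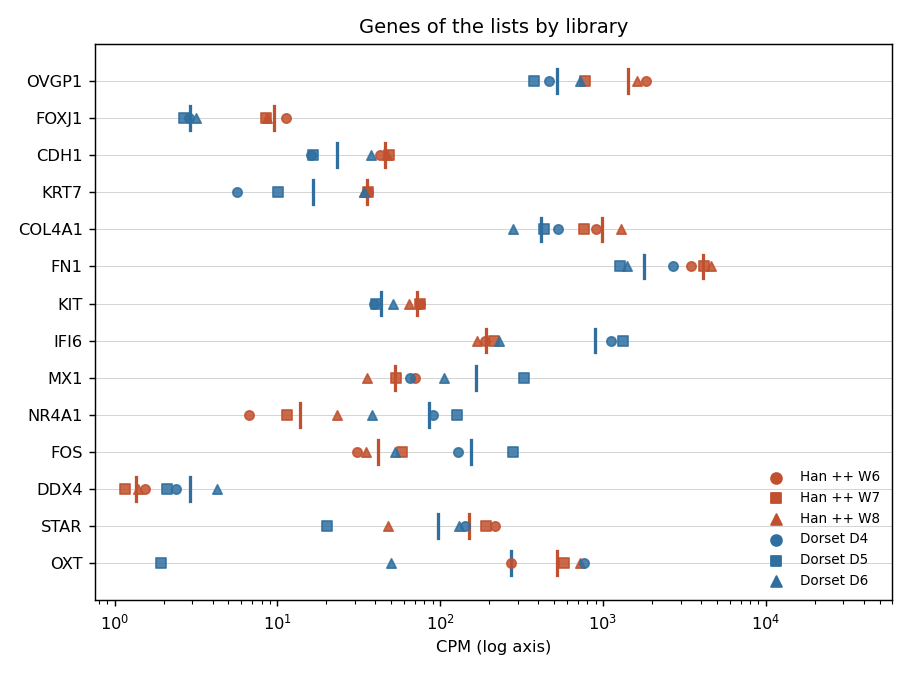
CPM on a log axis for genes of the lists, each marker an ewe and each vertical bar a group mean. OVGP1, FOXJ1, COL4A1, FN1 and KIT lie higher in all Han ++ ewes and NR4A1 lower, while STAR and OXT overlap and D5 is far below the others for OXT.

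The lists also differed in how single ewes placed them. The mean deviation of the interferon list from the 6 libraries, on the scale of log2(CPM + 0.5), was 1.00 in D5 and ran from -0.49 to -0.14 in the Han ++ ewes. The other Dorset ewes were at -0.12 (D4), next to W6, and at 0.05 (D6). That of the radial spoke list was 1.01 in W6, 0.24 in W8, 0.02 in D6 and -1.25 in D5. For the surface and epithelial list the Han ++ ewes were closer together than the Dorset ewes, of which D6 was at 0.13 and D4 at -0.57.

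**Figure D5:**
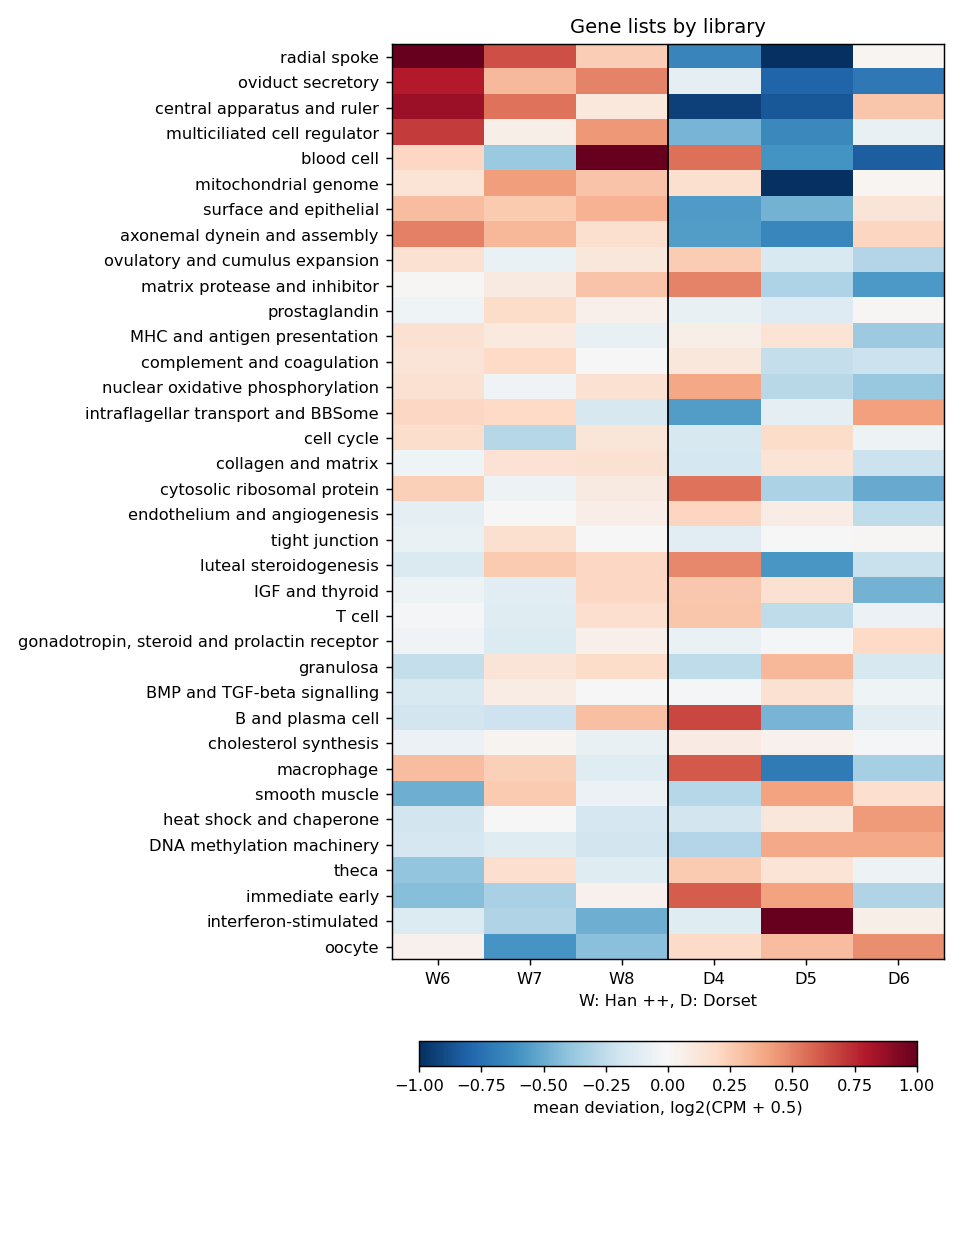
Mean deviation of each list's tested members from the mean of the 6 libraries, on the scale of log2(CPM + 0.5), red for higher and blue for lower, with colours ending at -1 and 1. The columns are ewes, Han ++ left of the line, and D5 stands out for high interferon and low radial spoke values.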

How the data were processed

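Ovary RNA of 3 Han ++ and 3 Dorset ewes was analysed, with 1 library per ewe. The authors mapped the reads to the sheep genome Oar_v3.1 with TopHat, and the deposited values are raw counts of uniquely mapped reads on each gene. The counting program, strand use and tool versions were not given in the sources used here. The kit is stranded total RNA after ribosomal depletion in the methods, and another Illumina kit in the labels. Without a stated strand setting, overlapping and antisense genes are uncertain, as are near-identical copies (1545 rows carry a numeric suffix to another row's identifier).

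The counts were tested with edgeR 4.0.16 in R 4.3.3 on the 6 libraries alone. The fit used TMM factors, edgeR's expression filter by group (16426 of 27174 rows kept), breed as the only factor and Benjamini-Hochberg adjustment over all tested rows. A row was called at an adjusted p under 0.05 with a fold above 1.5 or under 0.667, the study's thresholds. The p values measure the spread between these ewes, and the common biological coefficient of variation was 0.439. Every pair of libraries differed by more than sampling noise. Depth was 10803913 to 20992535 reads. The fit models counting error apart from the spread between libraries. With 1 library per ewe, variation from library preparation was not separated from the spread between ewes.

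DESeq2 1.42.0, limma 3.58.1 (voom with quality weights), other size factors and filters, no fold threshold, a fit of all 9 libraries and the omission of each library were alternatives, and the omission of W8 and D4 together was an alternative chosen after seeing the data. The fits were tested on simulated counts. Figures were drawn with matplotlib 3.10.9.

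The comparison and the 36 gene lists, written from general knowledge, were chosen with earlier results of these data known. Of 1085 listed genes 970 had a row, 909 matched by symbol, 53 by gene number and 8 by synonym through a table of the assembly ARS-UI_Ramb_v3.0, which served for names only. Named genes were the 12 of smallest p in each direction among genes with a symbol whose breeds did not overlap and whose fold was above 1.5, up to 3 of smallest p in each list, and BMPR1B, GDF9 and BMP15. Genes singled out with their values in view include HYDIN, RSPH1, PAX8, KRT7, IER3, MX1, DDX4, ZP3, FSHR, CYP17A1, OXT, COL1A1, COL4A2, COL8A1, COL11A1, DNAH5 and CYTB. Others so chosen were BNC1, CALB2, LRRN4, MSLN, UPK3B, KPNA7, MOS, LAMA2, LAMB1, NID1, COL18A1 and LOC101116109.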

Additional observations from a re-analysis of the deposited data

How the results depend on the processing

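The count of called genes was 0 in edgeR's quasi-likelihood test and also 0 with DESeq2's size factors, with a filter of 1 CPM in 3 libraries, with no fold threshold and without W8 and D4. It was 27 with no filter on low counts, 1 with all 9 libraries in the fit (ROPN1L), 63 with DESeq2 and 5 with limma voom with quality weights, and from 0 to 6 when a library was left out (6 without D6, 1 without D4, which was MUSK). The genes higher at an unadjusted p under 0.05 numbered 458, with 1007 in limma, 784 without W8 and D4, and 250 (without W6) to 1235 (without D4) with 1 library left out. Those lower numbered 434, with 857 in limma, 716 without W8 and D4, and 237 (without W8) to 1225 (without D4). The cause was not tested. Among the named genes the log2 fold change turned its sign for TSHR (-2.27 to 0.37 with 1 library left out, positive without D4), STC1 (-1.24 to 0.16, positive without D4), SDC1 (-0.27 to 1.20, negative without W8) and ATP5H (-1.11 to 0.16, positive without D6). The list medians of the radial spoke, central apparatus, dynein, multiciliated, oviduct, epithelial and mitochondrial genome lists were positive, and those of the interferon, immediate early, oocyte, heat shock, DNA methylation and theca lists negative, in each of 13 alternatives. No paired analysis was possible because the animal numbers are not shared between the breeds. Oocyte genes, BMPR1B and BMP15 are limited by few reads.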

Other observations

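Some rows outside the lists, named after their values were seen, also set the breeds or single ewes apart. CA5A, a mitochondrial carbonic anhydrase, measured 493 CPM in D4 and 254 CPM in D5, but 0.113 CPM in D6 and at most 0.692 CPM in the Han ++ ewes. D6 therefore lay with Han ++ for this gene, and the row overlapped between the breeds. RARRES1, a retinoic acid responsive gene, measured 2057, 1123 and 1898 CPM in Han ++ and 697, 189 and 376 CPM in Dorset (log2 fold change 2.01, standard error 0.50, adjusted p = 0.550 in edgeR). GRN, which encodes progranulin, stood at 130, 101 and 129 CPM and at 69.3, 33.9 and 32.3 CPM. All Han ++ values exceeded all Dorset values for RARRES1 and GRN.

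Of 28 tested transfer RNA rows, 9 were higher and none lower at an unadjusted p under 0.05, with a median log2 fold change of 0.59. Over all tested rows the shares were 2.79% and 2.64%. TRNAV-AAC.9 (78, 57 and 37 reads in Han ++) and TRNAK-UUU.12 (56, 19 and 21) had 0 reads in every Dorset library. Such rows could pass the expression filter only through Han ++, so the filter set their direction and they do not count as support for the split. TRNAK-UUU.5 (243, 134 and 45 reads against 5, 3 and 0) and TRNAG-UCC (47, 117 and 67 against 0, 8 and 0) also relied on Han ++. The count and median of the transfer RNA rows are therefore not independent of the filter. TRNAD-GUC.7 measured 20.7, 15.2 and 17.7 CPM in Han ++ and 1.33, 1.24 and 0.170 CPM in Dorset. Transfer RNA genes have near-identical copies, so their counts are uncertain. The row LOC101116132, which the table names by number alone, was lower in Han ++ in every ewe, at 894, 363 and 434 CPM against 3236, 2056 and 2749 CPM.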
